A study of Drosophila melanogaster with 4 samples.

Results

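Histone H3 acetylated at lysine 18 (H3K18ac) was followed along chromosome arm 3L of *Drosophila melanogaster*, the left arm of chromosome 3, in the heads of adult flies. A cluster is a region that the authors' deposited lists mark as enriched for the mark in chromatin immunoprecipitation and sequencing (ChIP-seq). Clusters of 3L were taken when their midpoint lay at or below position 22089202 of FlyBase release 5 (r5), which leaves out the 10% of the arm next to the centromere, and when the score that the authors deposited for each region was above 0. This gave 1417 of the 8107 clusters of the replicate set, 1145 of the 6380 clusters of ChIP replicate 1 and 1091 of the 6248 clusters of ChIP replicate 2. The rule used position and the sign of the score, so width, size of the score and agreement between libraries were free to vary.

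The samples were 2 ChIP libraries of head nuclei, made with a new antibody lot against H3K18ac, and 2 libraries of input chromatin taken without immunoprecipitation. The flies were Oregon-R-modENCODE, genotype wild type, labelled as mixed adults, and the labels name no transgene or treatment. They were raised in population cages, and their heads were separated by sieves. Each ChIP replicate was called by the authors with the input of the same number, and the replicate set is a list for both replicates together. The labels leave unsaid whether the ChIP libraries derive from separate batches of flies. Their spread may therefore be technical.

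Acetylation of H3K18 is written in flies chiefly by the acetyltransferase CBP, the product of *nejire*, which transcription factors bring to enhancers and promoters. The mark is generally found at active regulatory DNA and is removed by deacetylases. Wide acetylated stretches are known from loci where many active elements lie side by side. A head holds brain, eye, fat body and muscle, among other tissues, so a score averages over cell types, and fewer cells with the mark cannot be told apart from less of the mark per cell. The depth of the libraries is unknown, since no read counts were used, and the sources used here do not give the scale and log base of the score.

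On 3L the mark was spread over much of the arm in each library. Clusters covered 6.32 Mb of the arm in replicate 1 and 5.70 Mb in replicate 2, or 28.6% and 25.8%, a mean of 27.2% ± 1.98 (SD, n = 2). The replicate set covered 7.91 Mb, or 35.8%. Positions inside a cluster of both replicates made up 5.16 Mb, or 23.4% of the arm. The density was 51.8 clusters per Mb for replicate 1, 49.4 for replicate 2 and 64.1 for the set. Neighbouring clusters were typically a few kb apart, with a median gap of 4.07 kb (replicate 1), 4.57 kb (replicate 2) and 3.15 kb (set).

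Most clusters were short, and the few wide ones held about as much sequence as all the others together. The median width was 2906 bp (quartiles 1815 and 5670 bp) for replicate 1, 2585 bp (1767 and 5329 bp) for replicate 2 and 2301 bp (1483 and 5443 bp) for the set. Clusters under 2 kb made up 32.9% (replicate 1), 35.7% (replicate 2) and 43.3% (set) of the lists, yet they held 9.62%, 11.0% and 11.1% of the covered bases in the same order. Clusters of 10 kb or more, called broad here, numbered 155 (replicate 1), 132 (replicate 2) and 190 (set). By number they were 12.8% ± 1.02 (SD, n = 2) of a replicate's clusters, but they held 48.6% ± 2.11 (SD, n = 2) of its covered bases. In the set they were 13.4% of the clusters and held 55.5% of the bases. Clusters of 50 kb or more were few, with 7 called by replicate 1, 6 called by replicate 2 and 16 in the set, where they held 14.3% of the covered bases.

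**Figure D1:**
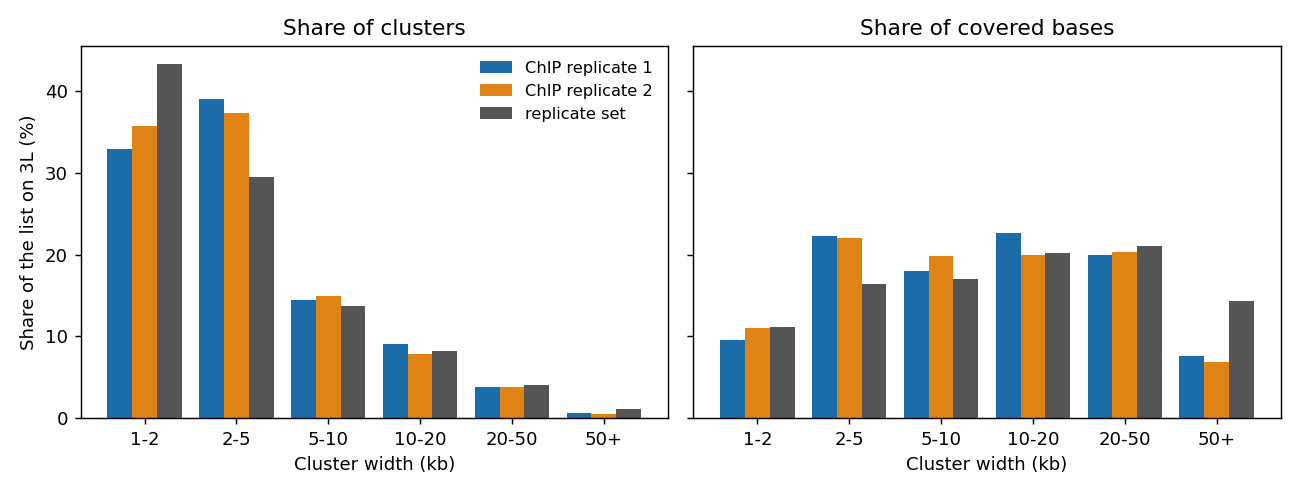
Share of the clusters (left) and of the covered bases (right), in percent of the 3L list, in each class of cluster width in kb, for ChIP replicate 1, ChIP replicate 2 and the replicate set. Clusters under 2 kb are 32.9% to 43.3% of the lists but 9.62% to 11.1% of the covered bases, whereas the 16 set clusters of 50 kb or more hold 14.3% of its bases.

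Wider clusters carried higher scores. In replicate 1 the median score was 0.480 in clusters under 2 kb, 0.610 between 2 and 5 kb, 0.768 between 5 and 10 kb, 0.926 between 10 and 20 kb and 1.04 between 20 and 50 kb. In replicate 2 the same classes had medians of 0.447, 0.576, 0.733, 0.860 and 0.917. In the set they had 0.326, 0.411, 0.562, 0.756 and 0.839. The order of the classes was thus the same in the 3 lists. Above 50 kb the median was 1.07 in each replicate and 0.901 in the set. The Spearman correlation of width and score across clusters was 0.815 (replicate 1), 0.808 (replicate 2) and 0.718 (set), as a description of clusters that share a library.

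The relation was seen above 2 kb but not below it. Across clusters of 2 kb or more the correlation was 0.715 (replicate 1), 0.727 (replicate 2) and 0.730 (set). Below 2 kb it was near 0 in the replicates (-0.0408 and -0.0168) and negative in the set (-0.323). Replicate clusters below 2 kb span a short range of widths, from 1301 bp on, and the part of this in the low correlation was not tested. These correlations therefore do not place a break at exactly 2 kb. Scores under 0.3 were found in 27 clusters under 2 kb and 0 wider clusters of replicate 1, in 60 and 0 of replicate 2, and in 223 and 15 of the set. The median score of replicate 1 was 0.484 in 123 clusters of 1750 to 1999 bp and 0.561 in 100 clusters of 2000 to 2249 bp. In replicate 2 these medians were 0.453 in 124 clusters and 0.517 in 98, and in the set 0.318 in 145 clusters and 0.376 in 82. The lowest score of any cluster of 2 kb or more was 0.312 (replicate 1) and 0.335 (replicate 2), and below 2 kb scores reached down to 0.0827 and 0.108. The very weakest regions of 3L were therefore narrow in each list, while narrow regions as a class spanned a wide range of scores.

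**Figure D2:**
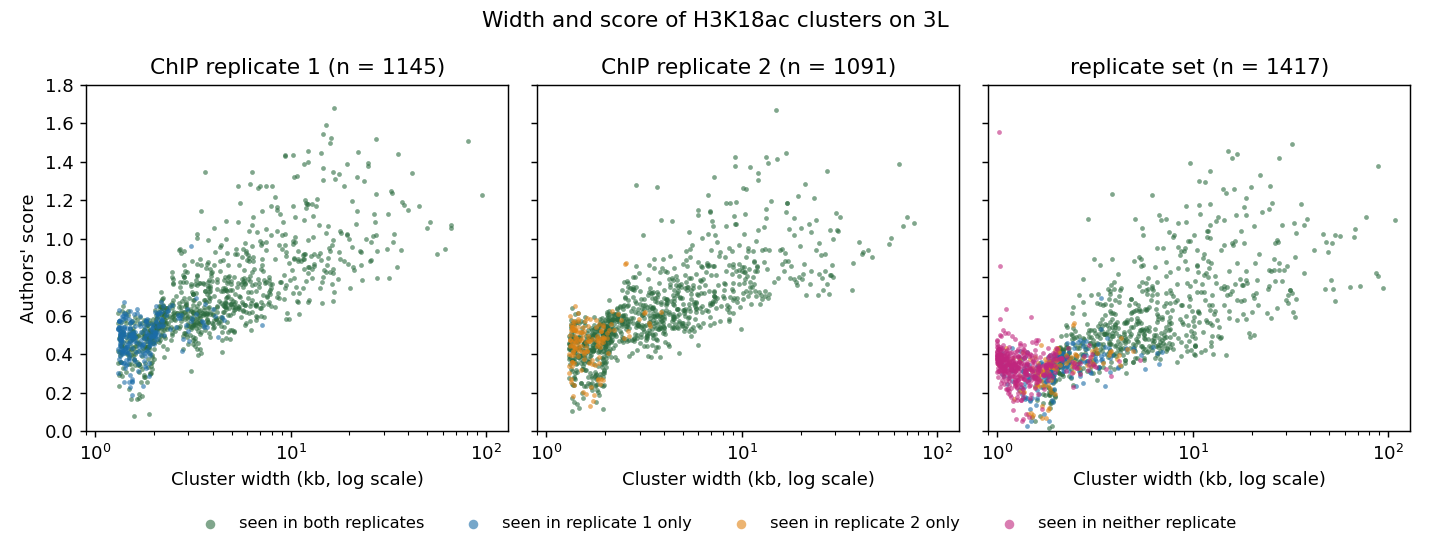
Each point is a 3L cluster, with its width in kb on a log axis and the authors' score on the y axis, for ChIP replicate 1, ChIP replicate 2 and the replicate set; colours give the replicate lists in which it was seen. Scores rise with width above 2 kb, and the single point at 1.55 on the left of the set's panel overlaps no cluster of either replicate.

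The widest clusters of the arm were spread over nearly its whole length, with a group of them in its middle. The 15 widest clusters of the set ranged from 51.4 to 108 kb and together spanned 1.08 Mb, or 13.7% of the covered bases of the set. Of these 15 clusters, 5 lay in the 1.5 Mb between 10000001 and 11500000. Replicate 1 covered the 15 clusters to between 87.3% and 99.5% of their length, with a median of 98.6%. Replicate 2 covered them to between 81.1% and 99.8%, with a median of 94.2%. Of the 15, 14 had a further cluster within 1 kb. Close neighbours were common in the set, where 49.5% of all broad clusters and 32.9% of clusters under 2 kb had one under 500 bp away. The neighbours of the 15 differed in size, from 1181 bp (score 0.319) beside the widest to 50.9 kb (0.785) beside the second widest.

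The widest, on 3L from 10300910 to 10408904, had a score of 1.10 in the set. Replicate 1 called it as 2 clusters, of 94.8 and 12.7 kb, with scores of 1.23 and 0.910. Replicate 2 called it as 3 clusters, of 70.1, 26.2 and 10.7 kb, with scores of 1.12, 0.734 and 0.938. The scores were highest in the left part of the domain in both libraries. To its left, from 10218734 to 10285950, lay a domain of 67.2 kb that each replicate called as 1 cluster, scoring 1.06 (replicate 1), 1.07 (replicate 2) and 1.05 (set). The next domains of this stretch ran from 10813072 to 10864474 (51.4 kb, set score 0.977), from 11263502 to 11316984 (53.5 kb, 1.02) and from 11391990 to 11444254 (52.3 kb, 0.740).

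Wide domains differed in the number of clusters into which the replicates divided them. The 93.9-kb domain from 17086716 to 17180610 had a set score of 0.747 and was divided into 11 clusters in replicate 1 and 8 in replicate 2. Its longest single piece was 27.2 kb in replicate 1, with a score of 1.02, and 37.1 kb in replicate 2, with a score of 0.873. In both libraries that piece began between 17106131 and 17114635 and was the highest-scoring part of the domain. A further cluster of 50.9 kb with a score of 0.785 followed 111 bp to the right in the set. By contrast, the 77.2-kb domain from 21832512 to 21909714, close to the centromere-proximal limit, was 1 cluster of 76.5 kb with a score of 1.08 in replicate 2. Replicate 1 called 4 clusters there, from 2.26 to 41.5 kb wide, with scores from 0.560 to 1.35. Many of the gaps between pieces were short. With gaps under 500 bp closed, these 4 clusters formed 1 run of 77.1 kb. In the 93.9-kb domain 6 of the 8 replicate 2 clusters then formed 1 run of 67.9 kb. The number of pieces is thus no measure of how much of a domain was acetylated.

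The 88.4-kb domain from 736976 to 825344 stood out among the wide ones for its score of 1.38, the eighth highest of the 1417 set clusters. It consisted of 2 clusters in replicate 1, with a base-weighted score of 1.48, and of 3 in replicate 2, with 1.31. The other domains of the 15 had set scores between 0.679 and 1.11 and ranks by score from 34 to 222. Those not yet placed ran from 19139920 to 19228662 (88.7 kb, set score 0.806), from 5188274 to 5275302 (87.0 kb, 0.826), from 3514874 to 3586462 (71.6 kb, 0.757) and from 3721484 to 3788202 (66.7 kb, 1.01). The remaining 3 ran from 8815362 to 8878998 (63.6 kb, 0.752), from 2795316 to 2851982 (56.7 kb, 1.01) and from 12206362 to 12260028 (53.7 kb, 0.679). The last of these was the least fully covered in both replicates, to 87.3% in 8 clusters of replicate 1 and to 81.1% in 7 clusters of replicate 2. In 14 of the 15 domains the base-weighted score was higher in replicate 1 than in replicate 2, the exception being that of 67.2 kb.

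**Figure D3:**
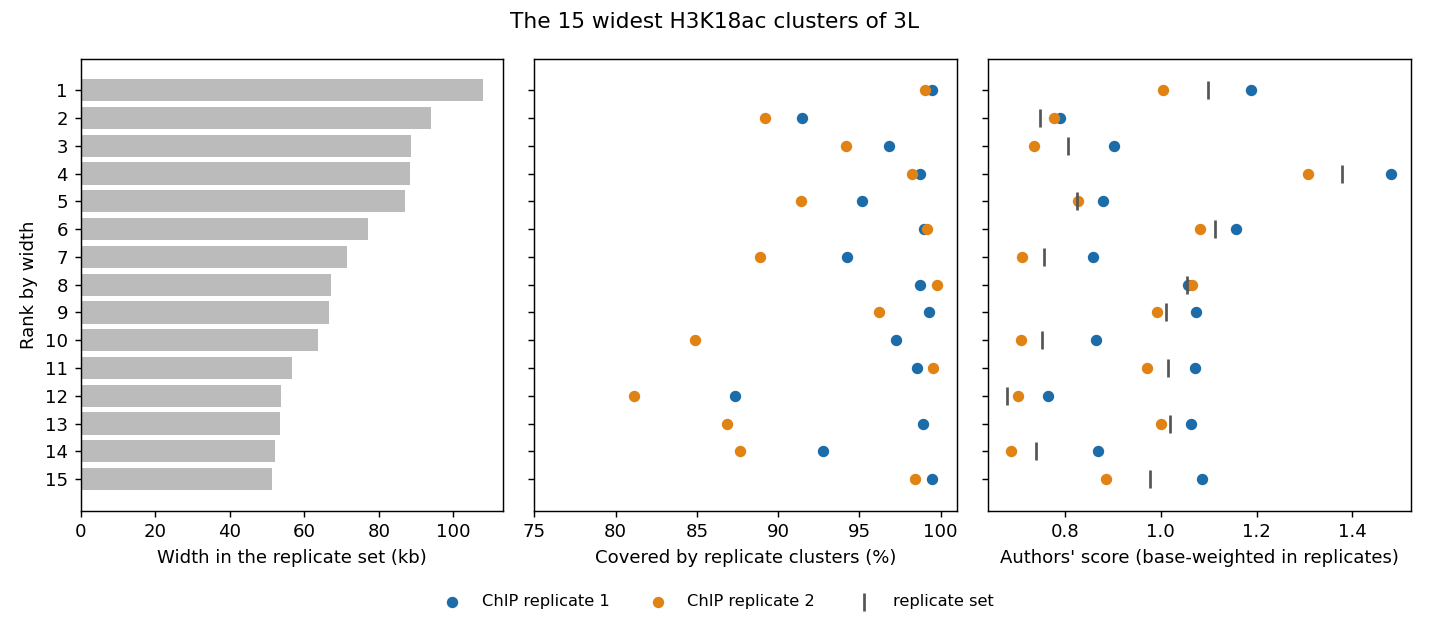
The 15 widest 3L clusters of the replicate set, ranked by width from top to bottom, with their width in kb (left), the percentage of their length covered by clusters of each replicate (middle, axis from 75%) and their score (right; replicate scores are means weighted by bases). Coverage lies between 81.1% and 99.8%, and the fourth widest has the highest score in the set and in both replicates.

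Among all 190 broad clusters of the set, 88 corresponded to a single cluster of replicate 1, 74 to a single cluster of replicate 2 and 51 to a single cluster in both. Replicate 1 covered a broad cluster to a median of 95.1% and replicate 2 to a median of 89.6%, with minima of 37.9% and 14.3%. Their set scores ranged from 0.395 to 1.50 with a median of 0.786, and 0 of them fell below the median of all set clusters, 0.394. The 3 broad clusters of lowest score lay from 9838374 to 9848622 (0.395), from 11894816 to 11909638 (0.397) and from 19359856 to 19369962 (0.401). In the replicates these 3 were groups of separate short clusters that covered 37.9% to 73.4% of their length in replicate 1 and 35.1% to 53.6% in replicate 2. These last 3 clusters were chosen after their values had been seen.

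The highest scores of the arm that both replicates shared were found in wide clusters, though mostly not in the 15 widest. Of the 10 clusters of highest score in the set, 9 were present in both replicates, 8 were broad and 1 was also among the 15 widest. The 9 were 9.63 to 88.4 kb wide, against a median of 2301 bp for all set clusters. The highest present in both replicates were immediate neighbours, from 17913308 to 17945568 (32.3 kb, score 1.50) and from 17945648 to 17960870 (15.2 kb, score 1.46). They were separated by 79 bp and together spanned 47.6 kb. Replicate 1 called this span as 3 clusters with scores of 1.68, 1.55 and 1.59, and replicate 2 called it as 3 clusters with scores of 1.67, 1.35 and 1.43. The leftmost of the 3, from 17913366 to 17930046 in replicate 1 and from 17913292 to 17928310 in replicate 2, had the highest score of all 3L clusters in each replicate list. Its left edge differed by under 100 bp between the libraries.

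The other clusters of high score were mostly single domains. They ran from 9044926 to 9061722 (16.8 kb, set score 1.44), from 19888092 to 19903994 (15.9 kb, 1.42), from 542726 to 570246 (27.5 kb, 1.42), from 4406512 to 4418772 (12.3 kb, 1.35) and from 10657508 to 10679600 (22.1 kb, 1.33). Each of these 5 was 1 cluster in both replicates. Their scores were 1.50, 1.53, 1.52, 1.46 and 1.45 in replicate 1 and 1.45, 1.41, 1.35, 1.31 and 1.28 in replicate 2, in the order given. The narrowest of high score seen in both replicates, from 20817144 to 20826768 (9.63 kb), scored 1.39 in the set and 1.43 in each of the replicates. Replicate 1 thus scored higher than replicate 2 in all 9 of the clusters present in both, although in the cluster of 9.63 kb the difference was lost in rounding. Set scores above 1 were reached by 66 clusters, of which 49 were broad and 65 were seen in both replicates.

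The highest set score of the arm belonged to a region of another kind. It lay from 4328756 to 4329778, was 1023 bp wide, had a score of 1.55 and overlapped no cluster of either replicate. The nearest set clusters on its sides were 49.6 kb to the left, with a score of 0.209, and 5823 bp to the right, with a score of 0.897. The next highest clusters under 2 kb had scores of 0.859, from 1485554 to 1486580 (1027 bp), and 0.639, from 12867766 to 12868870 (1105 bp). Each of these 3 was seen in neither replicate and was narrower than 1301 bp, the narrowest cluster of both replicate lists. Leaving out clusters seen in neither replicate, the highest set score of 3L was 1.50. The other 2 of these narrow clusters were chosen after their values had been seen.

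The 2 libraries placed the mark at largely the same positions on 3L. Of the 1145 clusters of replicate 1, 898 (78.4%) overlapped a cluster of replicate 2 by at least 1 bp, and of the 1091 clusters of replicate 2, 951 (87.2%) overlapped one of replicate 1. On the X, 2L, 2R and 3R, each without the 10% next to its centromere, these shares were 76.4% to 80.7% and 81.7% to 87.3%. On 3L the bases in both lists made up 81.7% of what replicate 1 covered, 90.6% of what replicate 2 covered and 75.3% of the bases in either list. Overlap in numbers of clusters fell to 58.3% and 61.1% when each cluster had to cover at least 50% of the other. Sharing rose steeply with width. Of the replicate 1 clusters under 2 kb, 52.0% were shared, against 85.5% between 2 and 5 kb, 99.4% between 5 and 10 kb and 100% from 10 kb on. In replicate 2 the shares were 69.2%, 95.1%, 100% and 100%. An overlap of 1 bp is easier to reach for a wide cluster, and the part of this in the increase was not tested.

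Where clusters matched 1 to 1, their edges and scores agreed closely. There were 563 such pairs, 49.2% of the clusters of replicate 1 and 51.6% of those of replicate 2. Their left edges differed by a median of 227 bp (upper quartile 616 bp) and their right edges by a median of 249 bp (upper quartile 611.5 bp). In 295 pairs, or 52.4%, both edges lay within 500 bp of each other. Clusters that were split or missing in 1 of the lists enter none of these pairs. Across the pairs the Pearson correlation was 0.875 for score and 0.908 for log10 width, and the Spearman correlation was 0.779 for score and 0.818 for width, as a description. The median score was 0.619 in replicate 1 and 0.562 in replicate 2, and 74.4% of the pairs scored higher in replicate 1. If both lists share a score scale, the median difference of replicate 1 minus replicate 2 was 0.0743, with quartiles of -0.00257 and 0.165. Of the 69 pairs that were broad in at least 1 library, 60 were broad in both.

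Clusters seen in a single replicate were shorter than shared ones and had lower median scores. Replicate 1 had 247 of them, with a median width of 1655 bp and a median score of 0.504, against 3597 bp and 0.642 for its shared clusters. Replicate 2 had 140, with 1574 bp and 0.478, against 3102 bp and 0.578. For their width these clusters were not weak. All clusters under 2 kb, shared or not, had lower median scores, 0.480 in replicate 1 and 0.447 in replicate 2. The lowest score of each replicate list, 0.0827 and 0.108, belonged to a shared cluster. Clusters seen in a single replicate accounted for 7.29% of the sequence covered by replicate 1 and 4.21% of that covered by replicate 2. The widest of replicate 1 ran from 80998 to 88139 (7142 bp, score 0.553), from 13206610 to 13211167 (4558 bp, 0.579) and from 21339057 to 21343508 (4452 bp, 0.596). The widest of replicate 2 ran from 2675385 to 2679233 (3849 bp, 0.618), from 4084500 to 4087881 (3382 bp, 0.548) and from 20056366 to 20059720 (3355 bp, 0.564). These 6 regions were covered by set clusters to between 85.5% and 100%, and the nearest cluster of the other replicate lay 489 to 8540 bp away.

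In the replicate set the same gradient was seen. Of its 1417 clusters on 3L, 679 (47.9%) were seen in both replicates. These made up 83.7% of its bases and had a median width of 5585 bp and a median score of 0.540. A further 206 overlapped replicate 1 only and 113 replicate 2 only, with median widths of 1921 and 1845 bp. The other 419 (29.6%) were seen in neither. Among set clusters of at least 1301 bp, the width of the narrowest replicate cluster, this share was 16.1%. The median width of the 419 was 1261 bp, and they made up 7.53% of the bases. Their median score, 0.343, was close to that of the clusters seen in replicate 1 only (0.336) and in replicate 2 only (0.343). The widest 5 of the 419 were 3189 to 5393 bp wide with scores from 0.286 to 0.370, the first from 10043244 to 10048636. The others ran from 15758532 to 15762740, from 17665820 to 17669628, from 1995568 to 1999154 and from 20842930 to 20846118. When set clusters were divided by score into 4 groups of nearly equal size, 16.4%, 16.9%, 60.7% and 97.5% were seen in both replicates, from the lowest group to the highest.

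Over all its clusters the set had a lower median width than either replicate, but where clusters corresponded one by one it held wider clusters with lower scores. In 416 places with exactly 1 matching cluster in each of the 3 lists, the median width was 3173 bp (replicate 1), 2799.5 bp (replicate 2) and 3841 bp (set), and the set cluster was wider than both in 80.8%. The median score was 0.628 (replicate 1), 0.575 (replicate 2) and 0.517 (set). In 233 of the 416 places the set score was below both replicate scores, in 183 it lay between them and in 0 it was above both. Clusters kept their order, with Spearman correlations of 0.938 and 0.928 between the set and replicates 1 and 2. Only 8 clusters of replicate 1 and 5 of replicate 2 were not overlapped by a set cluster on 3L.

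Along the arm the mark was distributed unevenly, and the pattern was shared by the libraries. Among 44 windows of 500 kb, coverage averaged over the replicates had a median of 24.8% and quartiles of 17.8% and 31.3%. The most covered window ran from 10000001 to 10500000 with 54.2% covered by replicate 1 and 55.6% by replicate 2 (mean 54.9% ± 1.01, SD, n = 2). It was followed by the window from 2500001 to 3000000, with 52.8% and 52.4% (52.6% ± 0.320), and the window from 500001 to 1000000, with 55.3% and 49.5% (52.4% ± 4.11). The windows ranked 4 and 5, from 11000001 to 11500000 and from 10500001 to 11000000, continue from the most covered window. Each of these 3 neighbouring windows in the middle of the arm was covered to between 45.1% and 55.6% in both libraries.

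The least covered window lay not far beyond this stretch. This window, from 12500001 to 13000000, had 8.90% of its sequence covered by replicate 1 and 8.15% by replicate 2 (8.52% ± 0.532, SD, n = 2). The next were from 15000001 to 15500000, with 11.8% and 10.4% (11.1% ± 1.04), and from 6000001 to 6500000, with 13.3% and 10.4% (11.8% ± 2.04). The most and the least covered window thus differed 6.44-fold, by more than the spread between the libraries in either. In windows of 250 kb, the highest value was 73.7% ± 9.34 (SD, n = 2) from 11250001 to 11500000 and the lowest 1.48% ± 0.200 from 12500001 to 12750000. In the first of these, 80.3% was covered by replicate 1 in 22 clusters and 67.1% by replicate 2 in 30 clusters, and in the other each replicate had 2 clusters.

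Windows of high coverage were not always those with the most clusters. Across the 44 windows of the set, which are not independent, the Spearman correlation with coverage in the set was 0.739 for the number of broad clusters, 0.474 for the number of all clusters and 0.352 for the median score. Broad clusters hold 55.5% of the covered bases of the set, so the first of these values is in large part built into the measure of coverage. The window from 2500001 to 3000000, for example, had 27 set clusters, of which 10 were broad, whereas the window from 7000001 to 7500000 had 48, the most of all, of which 4 were broad, and was covered to 37.2% in the set. Window coverage was correlated between the replicates (Pearson 0.984, Spearman 0.974). Replicate 1 was higher in 42 windows and replicate 2 in 2, those from 10000001 to 10500000 and from 13500001 to 14000000. The largest difference, 8.74 percentage points, was in the window from 11000001 to 11500000.

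**Figure D4:**
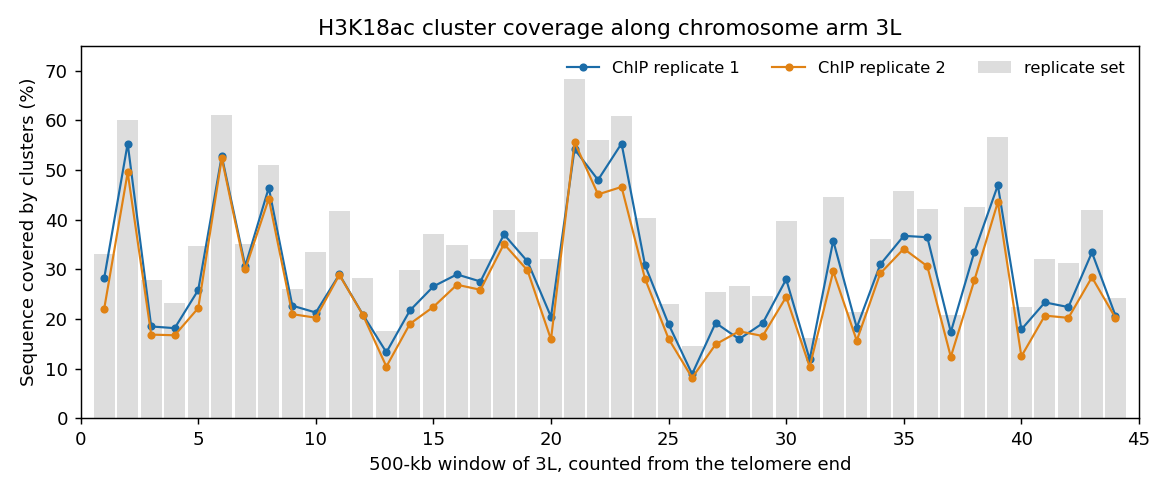
Percentage of sequence covered by clusters in 44 windows of 500 kb along 3L, numbered from the telomere end, for ChIP replicate 1 and ChIP replicate 2 (lines) and the replicate set (grey bars). Windows 21 to 23 are 3 of the 5 most covered by the mean of the replicates, and window 26 is the least covered, with a mean of 8.52% in the replicates.

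In 9 successive parts of equal length, each 10% of the whole arm, coverage showed no steady gradient from telomere to centromere. From the telomere on, the replicates averaged 26.8%, 35.2%, 21.9%, 27.9%, 40.8%, 14.7%, 26.1%, 29.4% and 22.1%, with SDs from 1.12 to 3.39 (n = 2). Part 5 was the most covered and part 6 the least, in each replicate and in the set. Part 5 held 25 broad clusters of replicate 1, 22 of replicate 2 and 30 of the set, and part 6 held 8, 6 and 13. Median scores differed less, with 0.620 (replicate 1) and 0.603 (replicate 2) in part 5 and 0.557 and 0.542 in part 6.

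Broad clusters had a broad neighbour more often than other clusters did, a difference that was not tested. Of the 155 broad clusters of replicate 1, 41.3% had a broad cluster as an immediate neighbour, against 22.2% of its other clusters. The shares were 34.1% against 20.3% in replicate 2 and 37.9% against 22.2% in the set. Across all neighbouring pairs the widths were only weakly related, with a Spearman correlation of 0.101 (replicate 1), 0.139 (replicate 2) and 0.119 (set), which is no finding at this size. Gaps under 500 bp separated 18.1% (replicate 1), 14.8% (replicate 2) and 22.2% (set) of neighbours. When such gaps were closed, 1103 set clusters remained, and the widest was 145 kb, from 17086716 to 17231576 in 2 pieces. The next, of 119 kb in 3 pieces, ran from 11325026 to 11444254, ahead of 116 kb in 4 pieces from 10292444 to 10408904.

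Long stretches of 3L carried no cluster. In the set 52 gaps were over 50 kb and together made up 4.36 Mb, or 19.7% of the arm. In replicate 1 there were 76 such gaps, 30.3% of the arm, and in replicate 2 there were 85, 33.7%. The longest of the set was 214 kb, from 5354417 to 5568431. It held no cluster of replicate 1, and a replicate 2 cluster of score 0.798 only reached into its right end. The next were 174 kb from 20535197 to 20709301, 169 kb from 12518157 to 12686777, 155 kb from 21593175 to 21748107 and 129 kb from 18302747 to 18431795. Those of 169 and 129 kb held no cluster of either replicate. That of 174 kb was touched at its left end by a replicate 1 cluster. That of 155 kb was touched at its left end by a replicate 2 cluster and held a replicate 1 cluster of 1754 bp with a score of 0.238. The depth of the libraries and the mappability of these gaps are unknown, so the gaps are stretches without a called cluster, not stretches shown to lack the mark.

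The limit of the region studied did not cut through a cluster of any list. In the set the last cluster inside it ran from 22082130 to 22083746 (score 0.343) and the first outside from 22091664 to 22092860 (0.392). In replicate 1 these were from 22066815 to 22070384 (0.771) and from 22100191 to 22103464 (0.711), and in replicate 2 from 22066431 to 22070330 (0.851) and from 22119923 to 22121230 (0.427).

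3L was set beside the X, 2L, 2R and 3R, each without the 10% next to its centromere. It was covered to about the same extent as the other arms together, 27.2% ± 1.98 against 27.1% ± 1.54 (SD, n = 2 each), a difference of 0.124 percentage points that was smaller than the spread between replicates. Yet this coverage came in fewer clusters, and more of it lay in broad ones. 3L had 50.6 ± 1.73 clusters per Mb and the other arms together 55.8 ± 0.998 (SD, n = 2 each), a difference of -5.20 ± 0.731. Broad clusters held 48.6% ± 2.11 of the covered bases on 3L and 41.1% ± 3.07 on the other arms (SD, n = 2 each), a difference of 7.50 ± 0.967 percentage points within the same library. In number, broad clusters reached 7.02 per Mb on 3L and 6.59 on the other arms in replicate 1, 5.98 and 5.56 in replicate 2, and 8.60 and 9.25 in the set. The set thus held fewer broad clusters per Mb on 3L than on the other arms, although they made up more of its covered bases.

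In each of the 3 lists 3L had the lowest number of clusters per Mb of the 5 arms and the highest share of bases in broad clusters. That share was 50.1% on 3L in replicate 1 and 47.1% in replicate 2, whereas 3R, the next, had 46.3% and 42.3%, and the X had 37.6% and 35.4%. In the set it was 55.5% on 3L, 53.0% on 2R and 52.8% on 3R. Its first rank held in each list also with limits of 5 and 20 kb and with gaps under 500 bp closed, settings chosen after the data had been seen. The size of the difference did depend on the limit: it was 3.66 percentage points with 5 kb and 8.83 with 20 kb, as means of the replicates. These differences were not tested and are given as a description, since the smallest p that a two-sided exact permutation test over 2 paired libraries allows is 0.5.

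The scores of 3L lay beside those of the other autosomal arms. The median score in replicate 1 was 0.598 on 3L, 0.596 on the other autosomal arms and 0.721 on the X. In replicate 2 it was 0.559, 0.568 and 0.699, and in the set 0.394, 0.398 and 0.497, in the same order. Against the other autosomal arms the mean difference of the replicates was -0.00368 ± 0.00703 (SD, n = 2). Against all other arms, the X included, it was -0.0340 ± 0.00554. The highest score on 3L seen in a replicate was 1.68 (replicate 1) and 1.67 (replicate 2). Among the more numerous clusters of the other arms together, 4806 and 4686, the highest was 1.99 and 1.81. Arm by arm, in the order X, 2L, 2R and 3R, it was 1.82, 1.99, 1.87 and 1.97 in replicate 1. In replicate 2 it was 1.59, 1.81, 1.68 and 1.71, so 3L was not the lowest there. Agreement of the replicates in covered bases was 75.3% on 3L, 71.2% on the X, 70.7% on 2L, 73.3% on 2R and 72.6% on 3R.

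**Figure D5:**
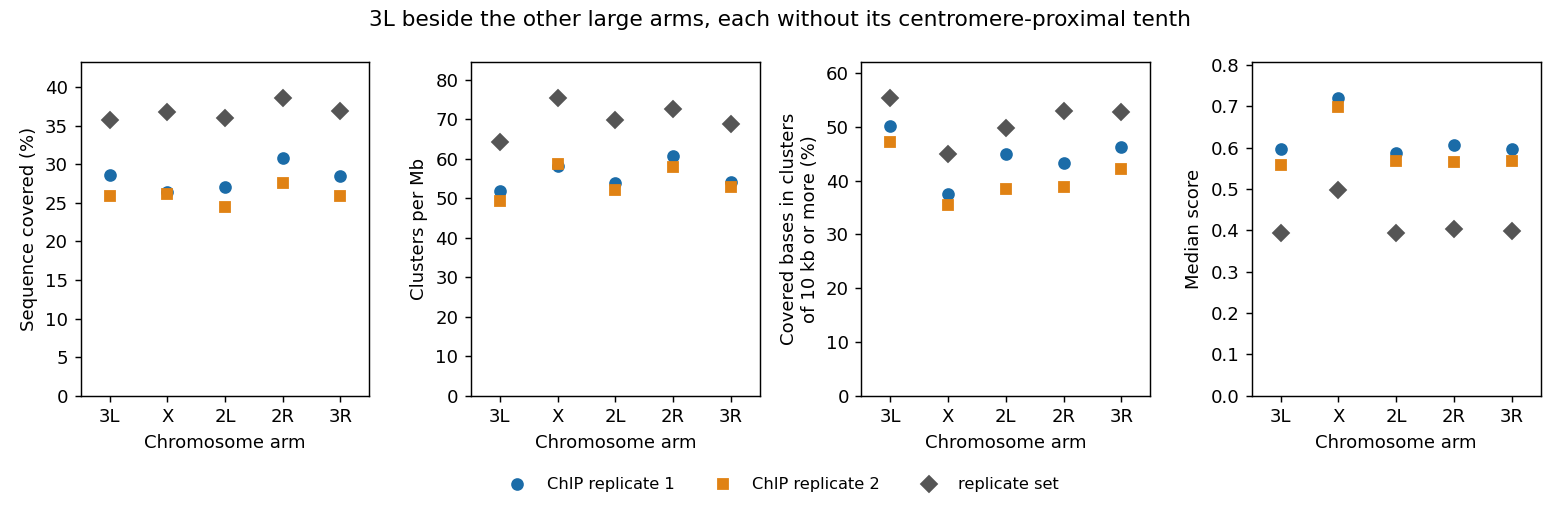
Coverage in percent, clusters per Mb, percentage of covered bases in clusters of 10 kb or more, and median score on 3L and on the X, 2L, 2R and 3R, for ChIP replicate 1, ChIP replicate 2 and the replicate set; each arm lacks the 10% next to its centromere. 3L is lowest in clusters per Mb and highest in the share of bases in broad clusters in each list, and its median score lies beside those of the other autosomal arms, below the X.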

How the data were processed

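The 3 region lists were deposited by the authors with coordinates of FlyBase r5, per the file headers. The submitters' processing notes name Bowtie 0.12.7 but no step it served. Not given in the sources used here are the program that called regions, its cutoffs, the making of the replicate set and the read depth. The score is the authors' own deposited value per region, and it was used to describe, rank and filter clusters. Scores of different lists set side by side assume a common scale, which was not checked.

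Calculations used Python 3.11.15 with pandas 2.3.3, numpy 2.4.6 and scipy 1.17.1, and matplotlib 3.10.9 drew the figures. An overlap of 1 bp or more made clusters of different lists shared. A base-weighted score averages the replicate clusters in a region by overlapping bases. Interval counting was tested on the 3L clusters of replicate 1 and on lists made from them by dropping clusters at random and trimming the rest. No test between samples was run, since both ChIP libraries form 1 group. Without read counts, no interval for the counting error of reads was computed. Inputs enter only through the authors' calls.

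The members and lists were chosen with earlier results of these data known. Most regions were named by a fixed rule: the 15 widest and 10 highest-scoring set clusters, the 5 widest seen in neither replicate, the 3 widest seen in each replicate only, the 5 longest gaps, the 3 most and 3 least covered windows, the clusters beside the limit, and depleted records. Some named places fall outside this rule. Among them are the runs with gaps closed, the windows ranked 4 and 5, the window from 7000001 to 7500000 and the stretch from 10 to 11.5 Mb. The only gene table at hand is on release 6, so no gene was placed on these regions and no sequence is printed.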

Additional observations from a re-analysis of the deposited data

Results flagged for a closer look

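A region marked as depleted of the mark, outside the enriched clusters on which the results rest, was present in the list of replicate 1 on 3L, from 3901530 to 3903057 (1528 bp), with a score of -0.0291. It drew attention as a signal in records that enter no comparison. An enriched cluster was called at the same place by replicate 2 (score 0.409) and in the set (0.194). With 2 libraries per group, no check for a library far from the others was possible.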

How the results depend on the processing

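Of 47 alternative values, 24 moved by more than the replicate SD, a binomial interval or, for a number of clusters, 1.5 times, and 23 did not. Those using the replicate set in place of the replicates, and those for broad clusters and clusters per Mb against the other arms, were added once the data had been seen. The alternatives that leave out a replicate are among the 23 by construction. The mean of 2 replicates cannot shift by more than their SD when a replicate is left out. With a score of at least 0.5, the clusters numbered 714 in replicate 2 and 404 in the set, coverage was 24.5%, the shared part of replicate 1 was 70.9%, and the highest and lowest window had 53.3% and 6.84%. Fewer clusters enter by construction, most of all in the set, whose scores run lower. The set in place of the replicates gave a coverage of 35.8%, a broad share of 55.5%, and differences from the other arms of -1.25 points in coverage, 5.11 points in broad share and -7.34 clusters per Mb. Broad clusters held 67.5% with a limit of 5 kb and 56.9% with gaps under 500 bp closed, and their excess over the other arms was 3.66 points at 5 kb and 8.83 at 20 kb. Against the autosomal arms alone that excess was 6.14 points, and the differences were -4.41 clusters per Mb and -0.00368 in median score. Reciprocal overlap of 50% gave 58.3% and 61.1% of replicate clusters shared and 38.1% of set clusters seen in neither, and 16.1% were seen in neither among those at least as wide as the narrowest replicate cluster. Windows of 250 kb gave 73.7% and 1.48%. For other changes the cause was not tested. The difference in coverage from the other arms changed sign, at -0.0606 for whole arms and -0.134 for autosomal arms, and is below the spread between replicates. Leaving out a replicate gave 25.8% to 28.6% for coverage, 47.1% to 50.1% for the broad share, -0.183 to 0.432 for the difference in coverage, -0.0379 to -0.0301 for that in score, 6.82 to 8.19 for that in broad share and -5.71 to -4.68 for that in clusters per Mb. No paired analysis was possible because region lists exist here for the ChIP libraries alone, and the inputs of the same number have no values of their own. With unknown depth, a weak or narrow region missing from a list is not shown to lack the mark.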
